A study of Homo sapiens with 4 samples.

Results

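MAPK feedback and early response genes were followed in chromatin accessibility data from the human leukemia cell line SEM: the dual-specificity phosphatase genes DUSP4, DUSP5 and DUSP6, the Sprouty genes SPRY1, SPRY2 and SPRY4, the Sprouty-related genes SPRED1 and SPRED2, and the transcription factor genes ETV5 and EGR1. Members were all consensus ATAC-seq peaks that overlapped the gene body of 1 of these 10 genes, extended by 20 kb on either side, in hg19. This rule gave 81 peaks of the 139872 in the count table. Accessibility was measured in 4 libraries of SEM cells that all carried dCas9-KRAB, a nuclease-dead Cas9 fused to a transcriptional repressor domain. The sgFLT3-DE-1 libraries (2) carried a guide RNA directed at a distal enhancer of FLT3, and the sgNT libraries (2) carried a non-targeting guide. SEM is a B cell precursor leukemia line with a rearranged MLL gene. Whether a guide's 2 libraries stem from separate cultures is not stated in the labels, and p-values therefore reflect library-to-library spread that may be technical only.

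FLT3 is a receptor tyrosine kinase that signals through RAS, RAF, MEK and ERK, the MAPK cascade. ERK activity is held in check by proteins whose genes it induces: DUSP phosphatases remove the activating phosphates from ERK, Sprouty proteins act on the receptor and RAS end of the cascade, and SPRED proteins bring the RAS inactivator neurofibromin to the membrane. ETV5, an ETS factor, and EGR1, a zinc finger factor, are transcriptional outputs of the same cascade, and CIC is a repressor that ERK relieves from genes of this group. The comparison between guides asked whether chromatin at these loci differed once the FLT3 enhancer was targeted.

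Counts in peaks summed to 3670758 and 4831164 for the sgFLT3-DE-1 libraries and to 3321429 and 2683477 for the sgNT libraries. CPM are counts per 1000000 counts in the peaks that passed a count filter, with TMM factors. On the log2 CPM scale, libraries with the same number under different guides correlated at 0.915 and 0.922 across these peaks. Libraries of the same guide correlated less, at 0.875 and 0.887. The guide had 1 exact site with an adjacent NGG in hg19, at chr13:28843152-28843171 in an intron of PAN3. The peak over it (chr13:28842815-28843351) had 66.1 and 74.7 CPM with sgFLT3-DE-1 against 126 and 140.1 CPM with sgNT, a log2 fold change of -0.92 ± 0.26 (SE) that did not pass the false discovery rate (FDR) of 0.05 by edgeR (adjusted p = 1.0). The call rested on the fit: with loess offsets over mean count the adjusted p by edgeR was 0.0487. Both sgFLT3-DE-1 libraries lay below both sgNT libraries at this site. Of 81 member peaks, 0 held a site within 4 mismatches of the guide, and the closest had 7. Promoter peaks were present at 6 of 7 B cell precursor markers (CD79A had none) and at both MLL-rearranged markers, HOXA9 and MEIS1. Of markers of other cells, 1 of 3 T cell, 3 of 3 myeloid, 0 of 2 erythroid and 2 of 2 epithelial genes had a promoter peak. Presence did not mean a high level: peaks at CD79B, CD3E, CSF1R, LYZ and EPCAM fell below the count filter. Their highest sgNT means were 1.07, 0.0, 0.567, 1.34 and 0.367 CPM. MPO and KRT8 had 4.51 and 6.61 CPM, and the other B cell precursor markers ran from 7.65 (IGLL1) to 27.9 (EBF1). HOXA9 had 5.38 CPM, between MPO and KRT8, and MEIS1 had 39.0 CPM. In a bulk assay, fewer cells with open chromatin and less open chromatin per cell cannot be told apart.

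The 81 peaks were spread unevenly over the windows, from 5 at DUSP4 and SPRY4 to 16 at SPRED2. After the count filter 60 peaks could be tested. Of these, 19 lay within 1 kb of a protein-coding start (promoter peaks) and 41 lay farther away (distal peaks). Peaks were counted within 1 kb of their own start for 9 of 10 genes, against 63.7% of 19807 protein-coding genes. The exception was DUSP5, which encodes a nuclear phosphatase specific for ERK: its nearest peak lay 3447 bp from the start, in intron 1, and 4 of its 8 peaks passed the filter. No start of another protein-coding gene made a member peak a promoter peak, so the 19 promoter peaks belonged to the members' own starts.

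**Figure D1:**
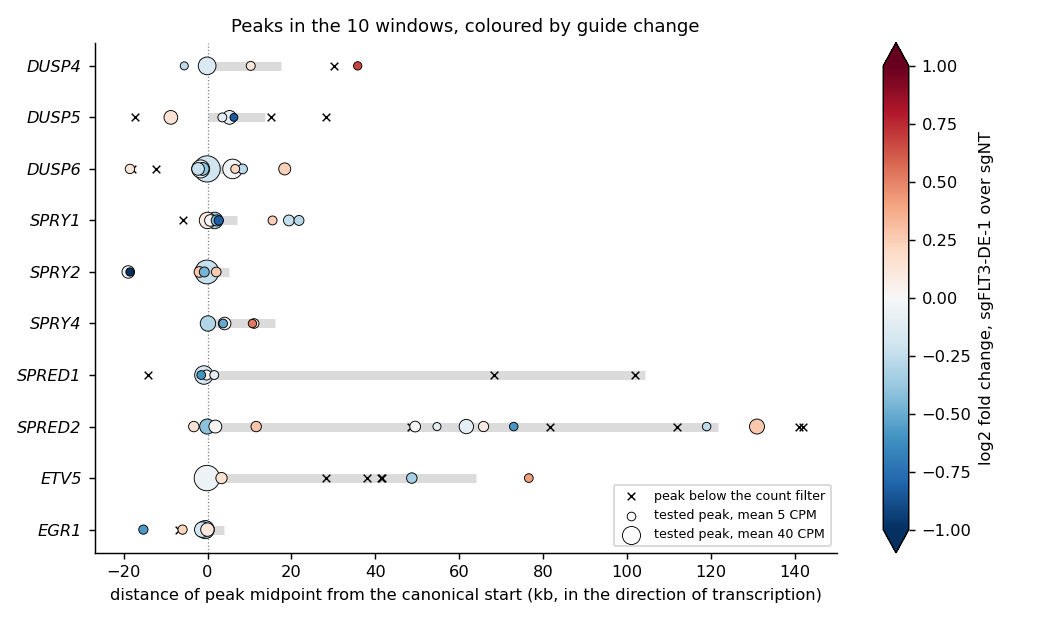
Each symbol is 1 of the 81 peaks, placed by the distance of its midpoint from the canonical start (kb, positive in the direction of transcription); grey bars are gene bodies, circle area follows mean CPM, and colour is the log2 fold change of sgFLT3-DE-1 over sgNT, limited to -1 and 1. The largest circles sit at the starts of DUSP6, ETV5 and SPRY2, DUSP5 has no symbol at its start, and 21 peaks below the filter are crosses.

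Upstream sequences are shown for EGR1 and DUSP5, which carried serum response elements, and for SPRY2. The SPRY2 sequence carried ETS and EGR letters and a match to the open pattern used for CIC. They were read from GRCh37 on the strand of the gene, and capitals mark matches to a motif on either strand. The motifs searched were the serum response element CArG box, the ETS letters CCGGAA, the cAMP response element TGACGTCA, the AP-1 letters TGANTCA, the EGR letters GCGNGGGCG, the HOX-PBX letters TGATTNAT and the CIC letters TGAATGNA. The CIC letters leave the base at N open, so a match need not be a CIC site. The SPRY2 match was TGAATGTA. In the printed windows no match overlapped another.
EGR1, 450 to 301 bases upstream, chr5:137800718-137800867, plus strand: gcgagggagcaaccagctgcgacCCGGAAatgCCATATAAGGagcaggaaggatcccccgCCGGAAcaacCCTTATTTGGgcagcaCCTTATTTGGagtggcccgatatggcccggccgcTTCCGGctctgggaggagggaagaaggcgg
EGR1, 300 to 1 bases upstream, chr5:137800868-137801167, plus strand: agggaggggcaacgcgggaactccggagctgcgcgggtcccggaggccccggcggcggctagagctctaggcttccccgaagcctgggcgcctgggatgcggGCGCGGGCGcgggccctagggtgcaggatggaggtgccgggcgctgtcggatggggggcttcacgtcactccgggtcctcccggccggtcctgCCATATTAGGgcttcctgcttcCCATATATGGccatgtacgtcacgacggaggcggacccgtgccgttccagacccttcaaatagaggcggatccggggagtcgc
DUSP5, 300 to 1 bases upstream, chr10:112257365-112257664, plus strand: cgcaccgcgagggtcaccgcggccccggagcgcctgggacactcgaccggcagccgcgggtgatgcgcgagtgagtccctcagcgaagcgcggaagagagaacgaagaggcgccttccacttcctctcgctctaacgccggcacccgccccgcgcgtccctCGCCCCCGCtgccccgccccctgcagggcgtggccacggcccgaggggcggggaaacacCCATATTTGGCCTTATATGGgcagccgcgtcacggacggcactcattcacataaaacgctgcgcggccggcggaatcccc
SPRY2, 300 to 1 bases upstream, chr13:80915262-80915561, minus strand: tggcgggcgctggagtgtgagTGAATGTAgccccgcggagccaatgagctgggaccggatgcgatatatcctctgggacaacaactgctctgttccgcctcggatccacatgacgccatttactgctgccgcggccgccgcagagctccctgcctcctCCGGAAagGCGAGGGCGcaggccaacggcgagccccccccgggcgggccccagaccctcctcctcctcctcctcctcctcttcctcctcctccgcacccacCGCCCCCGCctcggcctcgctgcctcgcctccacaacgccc

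The EGR1 sequence held 5 CArG boxes, which began 418, 380, 364, 105 and 83 bases upstream of the start, and 3 ETS matches, at 427, 390 and 330. The boxes at 418, 380 and 364 and all 3 ETS matches lay beyond 300 bases. That stretch was read for EGR1 only, and the shares over genes given below do not cover it. All 150 bases of the upper EGR1 window lay in the peak at chr5:137800316-137800908, and 207 of the 300 bases next to the start lay in this peak or in the one over the start. DUSP5 held 2 adjacent CArG boxes, which began 80 and 70 bases upstream, and 0 of its 300 bases lay in a member peak. Among the 300-base windows of 19823 protein-coding genes, 1.41% held a CArG box, and of the 10 members EGR1 and DUSP5 did. ETS letters were found for 2 of 10 members (DUSP4 and SPRY2), against 21.2% of genes, and EGR letters for 3 of 10 (DUSP5, SPRY2 and EGR1), against 13.4%. The CIC letters were found for 3 of 10 (DUSP4, SPRY2 and SPRY4), against 3.21%. The cAMP response element (2.57% of genes), the AP-1 letters (5.74%) and the HOX-PBX letters (2.18%) were found for 0 of 10.

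Promoter accessibility differed widely between members. Per kb of peak, and averaged over the sgNT libraries, the highest promoter peak of each gene followed the order DUSP6, ETV5, SPRY2, SPRY1, EGR1, SPRED2, SPRED1, SPRY4 and DUSP4. DUSP6, a cytoplasmic phosphatase that acts on ERK, had 243 and 197 CPM per kb with sgNT, above the highest promoter peak of 98.3% of 12618 genes. ETV5 had 177 and 169 CPM per kb and SPRY2 188 and 152, and these neighbours in the order overlapped. SPRY1 had 147 and 112 CPM per kb, EGR1 79.5 and 77.0, and SPRED2 71.4 and 69.5, each below the gene before it in both sgNT libraries. SPRED1 (58.0 and 45.4), SPRY4 (45.2 and 51.0) and DUSP4 (42.9 and 50) were not separated from one another. The median over genes, each taken at its highest promoter peak as the members were, was 49.7 CPM per kb. The first 6 genes lay above it in both sgNT libraries, and SPRED1, SPRY4 and DUSP4 did not, at percentiles of 52.4, 48.3 and 46.3. The order turned with the unit: per peak rather than per kb, the long DUSP4 and SPRED1 peaks (872 and 864 bp) stood at percentiles of 87.5 and 89.4 among all promoter peaks, above SPRY1 (81.9) and SPRED2 (81.2).

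**Figure D2:**
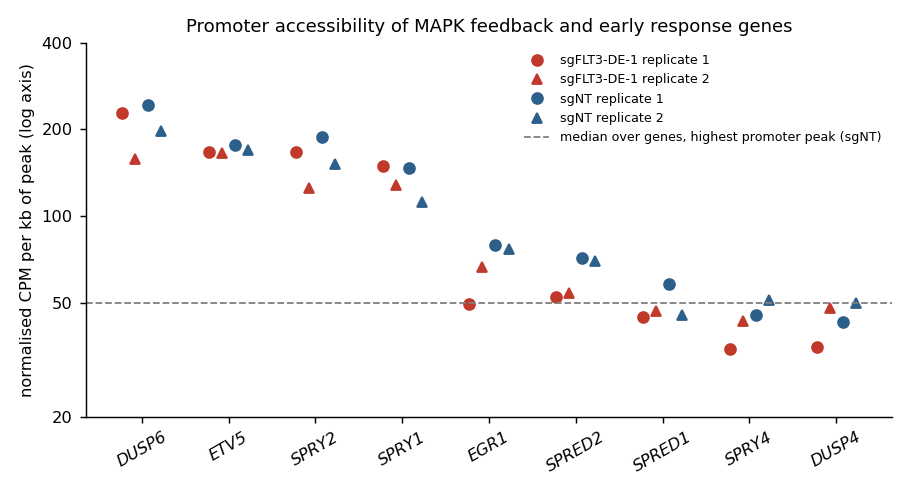
Normalised CPM per kb of peak (log axis) for the highest promoter peak of each gene in every library; circles are replicate 1, triangles replicate 2, red sgFLT3-DE-1 and blue sgNT, and the dashed line is the sgNT median over all genes of their highest promoter peak, 49.7. Levels run from 220 (DUSP6) to 46.5 (DUSP4) CPM per kb in the sgNT mean, and at ETV5, EGR1, SPRED2 and SPRY4 both red symbols lie below both blue ones.

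For the guide comparison, counts were first summed over each window, which gives 1 value per gene. The summed windows differed little between guides: log2 fold changes of sgFLT3-DE-1 over sgNT ran from -0.16 at EGR1 to 0.05 at SPRED2, 6 below and 4 above 0, with a median of -0.041. Over all 17258 gene windows the median was 0.013 and 46.9% were below 0. By edgeR, 0 of 10 windows passed FDR 0.05, as did 0.0% of all windows, and 0 of 10 had an unadjusted p under 0.05, against 0.707% of all windows. DESeq2 and limma-voom also called 0 of 10, beside 2 and 0 of all 17258 windows. The 95% confidence intervals ran from 0.619-fold to 1.57-fold at DUSP6, the widest, and from 0.654-fold to 1.22-fold at EGR1, so larger differences in either direction lay outside them at these depths.

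Window by window, the libraries were ordered more by their number than by guide at several genes. The DUSP6 window had 245 and 155 CPM (here relative to all window counts) with sgFLT3-DE-1 against 234 and 172 with sgNT. The SPRY2 window had 113 and 74.6 against 113 and 86.4, and the SPRY1 window 105 and 86.7 against 119 and 87.9. At these 3 genes the library numbered 1 was higher under both guides. Replicate 2 over replicate 1 at DUSP6 was -0.66 on the log2 scale with sgFLT3-DE-1 and -0.44 with sgNT, while the guide change was -0.02 ± 0.30 (SE). At EGR1 the window had 71.2 and 83.9 CPM with sgFLT3-DE-1 against 90.6 and 83.1 with sgNT, and 1 library of each guide lay within the range of the other. SPRED2 had 123 and 124 against 117 and 122, the only window of the 10 with both sgFLT3-DE-1 libraries above both sgNT libraries (9.62% of all windows), and 0 windows had both below (12.6% of all windows). The direction at DUSP6, SPRY1, SPRY2 and SPRED1 turned when sgFLT3-DE-1 replicate 2 or sgNT replicate 1 was left out, with values between -0.43 and 0.27 over the left-out libraries.

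**Figure D3:**
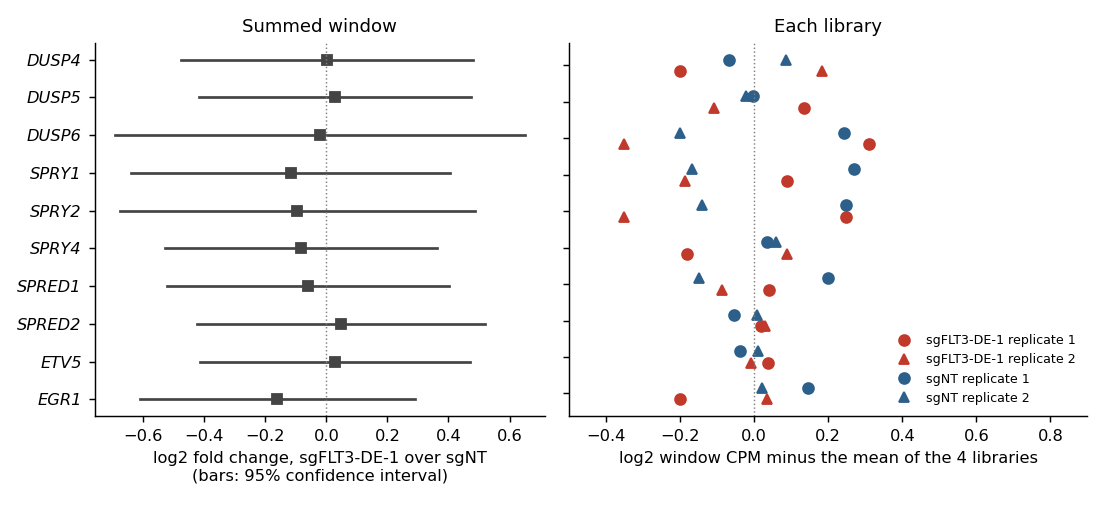
Left, log2 fold change of each summed window with its 95% confidence interval; right, log2 window CPM of each library minus the mean of the 4 libraries, with red for sgFLT3-DE-1, blue for sgNT, circles for replicate 1 and triangles for replicate 2. All 10 intervals include 0, and at DUSP6 and SPRY2 both circles lie to the right of both triangles.

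Among the phosphatase genes, the guide comparison at single peaks gave small differences at the promoters. The peak over the DUSP6 start (chr12:89746168-89746606, reaching into exon 1 and overlapping an antisense long noncoding RNA gene) had 99.8 and 69.4 CPM with sgFLT3-DE-1 against 107 and 86.5 with sgNT, a log2 fold change of -0.20 ± 0.27 (SE). The peak 5.96 kb past the start, downstream of the gene, had 56.8 and 38.3 CPM against 47.8 and 49.6 (-0.04 ± 0.26). The guides overlapped at both. DUSP4 encodes a nuclear phosphatase of ERK and other MAP kinases. The peak over its start (chr8:29207866-29208737) had 30.6 and 41.8 CPM against 37.4 and 43.6, a log2 fold change of -0.15 ± 0.26, and an intron 1 peak had 3.71 and 8.18 against 5.35 and 6.01 (0.11 ± 0.44). At DUSP5 the highest peak lay in intron 2 (chr10:112262772-112263029). It had 21 and 19.5 CPM against 20.1 and 23.6, a log2 fold change of -0.11 ± 0.27, with overlapping guides.

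Of the Sprouty genes, SPRY1 had 5 promoter peaks over several annotated starts, SPRY2 had 3 and SPRY4 had 1. The peak over the canonical start (chr4:124317811-124318049) had 35.5 and 30.5 CPM with sgFLT3-DE-1 against 35.1 and 26.8 with sgNT, a log2 fold change of 0.08 ± 0.26, and the next, 0.674 kb into the gene, had 15.8 and 10.8 against 14.0 and 12 (0.01 ± 0.32). Both overlapped between guides. In intron 2, a peak at chr4:124319397-124319841 had 28.1 and 30.3 CPM against 39.4 and 32.8 (-0.31 ± 0.25), and its neighbour 2.20 kb from the start had 8.34 and 11.9 against 15 and 12 (-0.40 ± 0.33). Both had each sgFLT3-DE-1 library below each sgNT library. SPRY2 had its main peak over the start (chr13:80915175-80915640), with 77.8 and 58.2 CPM against 87.6 and 70.9, a log2 fold change of -0.23 ± 0.26. A small peak 0.774 kb upstream had 7.72 and 6.19 against 8.36 and 10.8 (-0.46 ± 0.37), and one in intron 1 had 8.34 and 8.18 against 7.69 and 6.01 (0.26 ± 0.38). The 2 smaller SPRY2 peaks were separated between guides in opposite directions. The SPRY4 promoter peak (chr5:141704172-141704807, overlapping the antisense gene SPRY4-AS1) had 21.9 and 27.4 CPM against 28.7 and 32.4, a log2 fold change of -0.30 ± 0.26, and was separated between guides. Its highest other peak, in intron 1, had 11.7 and 20.6 against 15.7 and 18 (-0.03 ± 0.31).

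SPRED1 and SPRED2, which restrain RAS through neurofibromin, had the longest gene bodies of the group, 104414 and 121787 bp. The largest SPRED1 promoter peak lay 0.866 kb upstream (chr15:38543740-38544603) and had 38.6 and 40.5 CPM with sgFLT3-DE-1 against 50.1 and 39.2 with sgNT, a log2 fold change of -0.18 ± 0.25. A GC-rich peak closer to the start had 9.88 and 7.52 against 9.36 and 7.21 (0.05 ± 0.37), and the highest other peak, in intron 1, had 5.25 and 5.31 against 5.35 and 6.01 (-0.10 ± 0.43). Only the last of these was separated between guides. The SPRED2 peak over the canonical start (chr2:65659603-65660028) had 22.2 and 23 CPM against 30.4 and 29.6, a log2 fold change of -0.41 ± 0.26 with adjusted p = 1.0 by edgeR, and its libraries lay close together within each guide. At the alternative starts in intron 1, 65.8 kb and 54.7 kb from the canonical start, SPRED2 peaks had 12.7 and 6.19 CPM against 6.02 and 11.6, and 2.16 and 4.64 against 4.01 and 3.6, with overlapping guides.

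The transcription factor genes differed from each other in spread. At ETV5, the peak over the start (chr3:185826787-185827285, overlapping the gene DGKG) had 83.1 and 82.7 CPM with sgFLT3-DE-1 against 88.2 and 84.5 with sgNT. Its log2 fold change was -0.06 ± 0.26, which turned to 0.03 with a GC correction. A peak over exons 2 and 3, which also overlapped DGKG, had 9.58 and 15.9 against 7.02 and 16.8 (0.15 ± 0.36). At the promoter both sgFLT3-DE-1 libraries lay below both sgNT libraries, and at the exon peak the guides overlapped. At EGR1, the peak that held the printed upper sequence with 3 CArG boxes (chr5:137800316-137800908, overlapping a long noncoding RNA gene on the other strand) had 29.3 and 39.4 CPM against 47.1 and 45.6, a log2 fold change of -0.43 ± 0.26 with an unadjusted p of 0.107 by edgeR, and of -0.67 to -0.25 with 1 library left out. The peak over the start, with the 2 nearer CArG boxes, had 18.5 and 22.3 against 18.4 and 19.6 (0.11 ± 0.28), and the one 1.26 kb upstream had 22.9 and 29.6 against 30.7 and 29.2 (-0.18 ± 0.26). The first was separated between guides and the other 2 overlapped.

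Over all 60 tested member peaks, 0 passed FDR 0.05 by edgeR, DESeq2 or limma-voom. Of all 82558 tested peaks, 2 (0.00242%) passed by edgeR, 1 by DESeq2 and 3 by limma-voom. By edgeR, 2 member peaks were lower with sgFLT3-DE-1 at an unadjusted p under 0.05 (1.07% of all peaks) and 0 were higher (0.827% of all peaks). The median log2 fold change was -0.097, with 61.7% of member peaks below 0, beside 0.015 and 48.1% for all tested peaks. Promoter peaks had a median of -0.18 with 13 of 19 below 0, beside -0.090 and 62.7% of all 18160 promoter peaks, and distal peaks had -0.035 with 24 of 41 below 0, beside 0.049 and 44% of all 64398 distal peaks. Both sgFLT3-DE-1 libraries lay below both sgNT libraries at 16 of 60 member peaks (13.8% of all peaks) and above them at 5 (13.7%). For promoter peaks the count was 8 of 19, or 42.1%, beside 23.3% of all promoter peaks. Peaks of 1 window share their libraries and lie close together, so these shares are descriptions.

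The guide change moved with GC content in the whole table, so each member peak was set against all other tested peaks of its class with GC content within 2 percentage points. Relative to these, the median member peak was -0.084 on the log2 scale, with 35 of 60 below the median of their matched peaks, and its median percentile was 38.8. The value was -0.11 for promoter peaks (12 of 19 below) and -0.078 for distal peaks (23 of 41 below). Of the 60, 29 lay outside the middle 50% of their matched peaks. The promoter peaks with both sgFLT3-DE-1 libraries lower, 42.1% of the members', compared with a mean of 21.2% among their matched peaks. For distal peaks these shares were 19.5% and 12.8%. Depth was not matched: the median count was 85.25 for member promoter peaks and 39.25 for all promoter peaks. Whether depth accounts for the difference in shares was not tested. The matched median moved with single libraries: it was -0.031 without sgFLT3-DE-1 replicate 2 and -0.015 without sgNT replicate 1, and -0.031 with no filter on low counts. Summed over all 81 peaks, the members had 1078 and 1052 CPM with sgFLT3-DE-1 against 1177 and 1118 with sgNT, a ratio of means of 0.928.

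**Figure D4:**
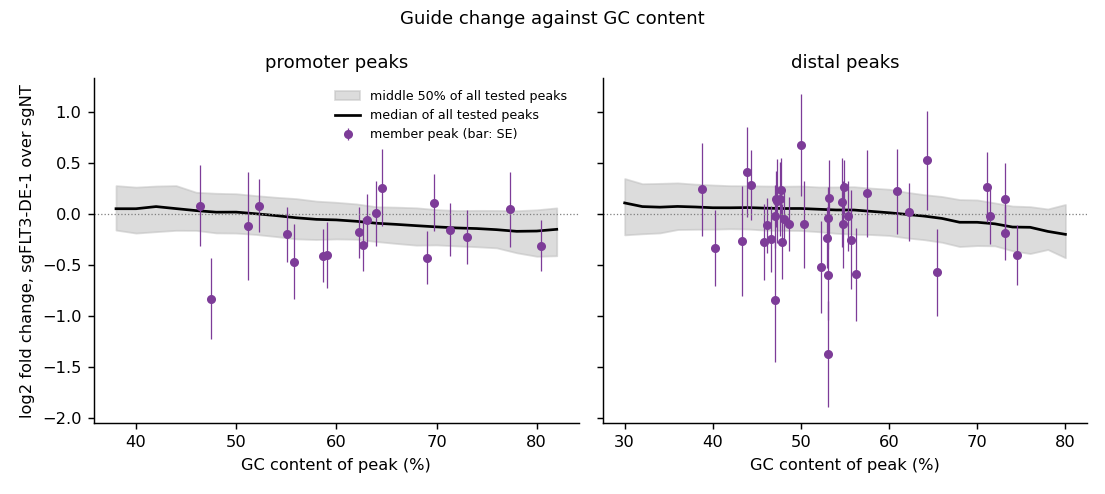
Log2 fold change of sgFLT3-DE-1 over sgNT against the GC content of the peak (percent), for promoter and distal peaks; purple points are the 19 and 41 member peaks with their SE, the line is the median of all tested peaks of the class and the band their middle 50%. The line falls with rising GC content in both panels, 12 of 19 promoter points and 23 of 41 distal points lie below the matched median, and most error bars reach the band.

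The member peaks of smallest p were mostly shallow. The smallest p belonged to a peak 18.5 kb upstream of SPRY2, which had 10 and 7 counts with sgFLT3-DE-1 against 18 and 14 with sgNT, or 3.09 and 1.55 against 6.02 and 5.61 CPM. Its log2 fold change was -1.37 ± 0.52 (unadjusted p = 0.0137, adjusted p = 1.0 by edgeR), and -1.89 to -0.91 with 1 library left out. It is printed because it was the member peak farthest below its matched peaks, and it held 0 matches to the motifs above.
SPRY2 upstream peak, chr13:80933671-80933798, minus strand: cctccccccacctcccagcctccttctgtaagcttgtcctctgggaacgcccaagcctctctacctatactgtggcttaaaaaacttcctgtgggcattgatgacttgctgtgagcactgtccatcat
A larger peak just beyond it had 19.2 and 13.5 CPM against 20.1 and 12.4 (-0.02 ± 0.31), and the difference between these neighbours was not tested. The second smallest p was at SPRY1, in intron 2 (chr4:124320550-124320688), with 4.32 and 5.53 CPM against 10.0 and 7.61, a log2 fold change of -0.83 ± 0.39 (unadjusted p = 0.0448, adjusted p = 1.0 by edgeR), and the third was the EGR1 upstream peak. In the other direction, a peak 35.8 kb past the DUSP4 start had 3.40 and 6.85 CPM against 3.01 and 3.6 (0.68 ± 0.50), a peak at exon 2 of SPRY4 had 4.63 and 5.31 against 3.68 and 3.20 (0.53 ± 0.48), and a peak downstream of SPRED2 had 25.6 and 30.5 against 21.7 and 25.2 (0.27 ± 0.26). The DUSP4 peak overlapped between guides, with 0.039 when sgFLT3-DE-1 replicate 2 was left out, and the other 2 were separated.

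**Figure D5:**
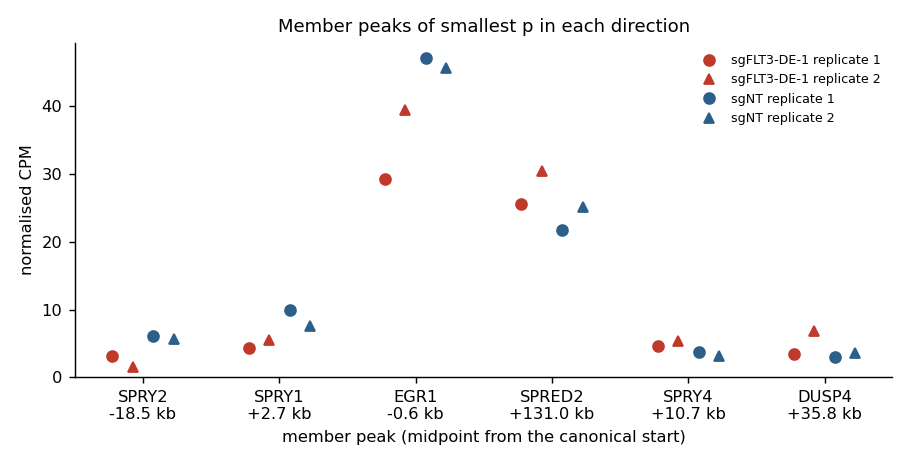
Normalised CPM in every library for the 3 member peaks of smallest p in each direction, named by gene and distance from the canonical start; circles are replicate 1, triangles replicate 2, red sgFLT3-DE-1 and blue sgNT. The SPRY2, SPRY1, SPRY4 and DUSP4 peaks lie at or below 10.0 CPM in every library, and no peak passed FDR 0.05.

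The other genes of the pathway gave a wider view at their promoters. Of 58 genes, 52 had a promoter peak, and 95 peaks were tested: 69 were below 0 and 26 above, with a median log2 fold change of -0.19 and of -0.11 relative to promoter peaks of matched GC content. By edgeR, DESeq2 and limma-voom 0 of 95 passed FDR 0.05, beside 2, 1 and 3 of all 82558 tested peaks. By edgeR 10 had an unadjusted p under 0.05, all below 0, beside 2.53% of all promoter peaks. By group, 9 of 11 phosphatase peaks, 26 of 33 early response and ETS factor peaks, 32 of 48 cascade peaks and 2 of 3 peaks of other ERK output genes were below 0, beside 62.7% of all promoter peaks, and SPRY3 and SPRED3 had no promoter peak. The medians relative to matched GC content were also taken by group, and differences between groups were not tested. They were -0.048 for phosphatases, -0.17 for early response and ETS factors, -0.004 for the cascade and 0.062 for other ERK output genes. Of the phosphatases, DUSP1 had the smallest p, with 12 and 14.2 CPM against 21.4 and 22.0 (-0.72 ± 0.29). Of the early response factors it was JUND, an AP-1 subunit, with 29.3 and 28.3 against 46.5 and 47.6 (-0.71 ± 0.25). The groups were separated at both.

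In the cascade group the smallest p was at CIC. Its peak at chr19:42788418-42788656 had 3.09 and 4.42 CPM with sgFLT3-DE-1 against 13.4 and 7.21 with sgNT, a log2 fold change of -1.44 ± 0.42 (unadjusted p = 0.00181, adjusted p = 1.0 by edgeR). Of the 5 CIC promoter peaks, 4 had an unadjusted p under 0.05 and were separated between guides, beside 2.53% and 23.3% of all promoter peaks. CIC was named for its smallest p, and its peaks lie close together and share their libraries, so this count is a description only. The highest CIC peak (chr19:42772840-42773397), singled out after its values were seen, had 33.1 and 48.6 CPM against 55.5 and 64.9 (-0.55 ± 0.26). Relative to promoter peaks of matched GC content, the 5 CIC peaks were at -0.67, -0.50, 0.025, -0.55 and -1.15 on the log2 scale, in order of position, and the last rested on few counts. The smallest p among other ERK output genes was at EPHA4, a receptor tyrosine kinase, with 14.5 and 12.2 CPM against 15.7 and 14.8 (-0.20 ± 0.30).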

How the data were processed

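ATAC-seq was measured in 2 sgFLT3-DE-1 and 2 sgNT libraries. The deposited file holds raw counts per consensus peak, and a companion file holds the same peak positions. Per the labels, reads were trimmed with cutadapt 1.18 and mapped to hg19 with Bowtie2 2.2.9, whereas the submitters' processing notes name MACS2 2.1.1.20160309, BWA, bedtools 2.24.0, SAMtools 1.2 and Trim Galore 0.4.4; the authors merged reproducible peaks over both guides. The study's supplementary notes name BWA rather than Bowtie2 and peaks called on nucleosome-free fragments, so the sources differ on the aligner, and which fragments were counted is not stated.

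Here, peaks were annotated with GENCODE v44 lifted to GRCh37. Peaks passing filterByExpr were fitted with edgeR 4.0.16 (TMM, quasi-likelihood, guide only) over all tested peaks, with Benjamini-Hochberg adjustment. Gene windows were summed and fitted likewise. DESeq2 1.42.0, limma-voom 3.58.1, other scalings, filters, flanks, a GC correction, thinning and left-out libraries were alternatives. Peak CPM are counts per 1000000 of a library's counts in the peaks that passed the filter, with TMM factors. Scripts were tested on simulated data. Intervals cover the spread between libraries and counting error only. The rule for named peaks took promoter peaks (the 3 highest where a gene had more), the highest other peak of each window, the 3 smallest p in each direction and the target peak. The members and gene lists were chosen with earlier results of these data known.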

Additional observations from a re-analysis of the deposited data

How the results depend on the processing

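Under every alternative run (15 for single peaks, 11 for windows, and 5 kb and 50 kb flanks), 0 member peaks and 0 member windows passed FDR 0.05. The median guide change of the member peaks, -0.097, stayed below 0: it was -0.066 with loess offsets over mean count, -0.079 with no filter, -0.079 with a mean count of at least 50, -0.068 with GC correction, -0.051 with the 50 kb flank and -0.15 to -0.11 with 1 library left out. Relative to class and GC content it was -0.084, and -0.064 with loess offsets, -0.031 with no filter, -0.051 after thinning to the smallest total, -0.10 and -0.066 with the 5 kb and 50 kb flanks and -0.13 to -0.015 with 1 library left out. The cause of these shifts was not tested. The target peak, -0.92, was -0.87 with loess offsets, where it passed FDR (adjusted p = 0.0487), and its adjusted p was 0.435 or more by edgeR with 1 library left out. The median percentile of the members' promoter peaks among all promoter peaks was 83.3 per kb and 89.4 per peak, and 73.8 among the highest peaks of all genes, a background chosen after seeing the data.

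Replicate numbers are shared between guides, but the labels do not say that a number marks a batch or day, and there are only 2 pairs. Deviations of same-numbered libraries correlated at 0.397 over all tested peaks and at 0.315 over the 60 member peaks. With a replicate block 74 peaks passed FDR 0.05 by edgeR against 2 without, and 0 of these were member peaks. The target peak passed (-0.92, adjusted p = 2.74e-10, and -0.99, adjusted p = 3.2e-06, with the GC correction as well), as did 3 promoter peaks of other pathway genes, at CIC, JUND and SRF, against 0 with the GC correction and replicate block. The median of the member peaks was -0.073 with the replicate block and GC correction together.

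Several values close to 0 changed sign, none past FDR on either side. Windows: DUSP4 to -0.015 (total counts), -0.003 (no filter), -0.006 (limma-voom), -0.006 (replicate block), -0.018 (thinned) and -0.066 (5 kb flank); DUSP5 to -0.16 and -0.006 (5 kb and 50 kb flanks); DUSP6 to 0.006 (RLE factors), 0.006 (DESeq2) and 0.001 (limma-voom); SPRY1 and SPRED1 to 0.014 and 0.016 (50 kb flank); SPRED2 to -0.015 (5 kb flank). Single peaks: SPRY1 at 0.674 kb to -0.004 (total counts), -0.056 (no filter), -0.030 (limma-voom) and -0.006 (thinned); SPRY2 at -18.9 kb to 0.003 (loess offsets), 0.014 (mean count of at least 50), 0.011 (replicate block) and 0.14 (thinned); SPRY4 at 4.07 kb to 0.009 (mean count of at least 50); SPRED1 at -0.250 kb to -0.015 (no filter); SPRED2 at 65.8 kb to -0.25 (thinned); the ETV5 promoter to 0.026 (GC correction) and 0.028 (GC correction with replicate block); and the EGR1 start to -0.034 (thinned).

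With 1 library left out in turn, window values ran from -0.21 to 0.17 at DUSP4, -0.099 to 0.15 at DUSP5, -0.39 to 0.27 at DUSP6, -0.32 to 0.14 at SPRY1, -0.43 to 0.18 at SPRY2, -0.23 to 0.036 at SPRY4, -0.22 to 0.14 at SPRED1 and -0.001 to 0.052 at ETV5. Peak values ran from -0.61 to 0.52 in DUSP4 intron 1, -0.41 to 0.040 at the DUSP4 start, -0.36 to 0.21 downstream of DUSP6, -0.49 to 0.036 at the DUSP6 start, -0.12 to 0.29 at the SPRY1 start, -0.28 to 0.26 at SPRY1 0.674 kb, -0.34 to 0.37 at SPRY2 -18.9 kb, -0.53 to 0.28 at SPRY4 4.07 kb, -0.37 to 0.002 and -0.16 to 0.25 at the SPRED1 upstream peaks, -0.49 to 0.59 and -0.82 to 0.27 at the SPRED2 intron 1 starts, -0.39 to 0.85 at the ETV5 exon peak and -0.042 to 0.23 at the EGR1 start. With 2 libraries a guide and few counts in most distal peaks, differences inside the intervals given were not excluded. An interval without 0 was not enough for a call: the SPRY2 peak at -18.5 kb had -2.44 to -0.303 and did not pass FDR 0.05.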

Other observations

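Motif letters were also counted in 300-base windows centred on the tested peaks, as a description with no test. The CIC letters TGAATGNA, with any base at N, were in 4 of 19 member promoter peaks (SPRY1, SPRY2, ETV5 and DUSP4, 1 peak each), or 21.1%, beside 2.19% of all promoter peaks. They were in 6 of 41 member distal peaks (2 each at DUSP6, SPRED1 and SPRED2), or 14.6%, beside 6.18% of all distal peaks. These matches need not be CIC sites. The CArG box was in 2 of 19 member promoter peaks, both at EGR1, beside 1.02%, and in 3 of 41 distal peaks, at ETV5 and SPRY1, beside 1.86%. The AP-1 letters were in 4 of 41 distal member peaks, 9.76% beside 17.0%, and in 2 of 19 member promoter peaks, both at SPRED2, 10.5% beside 5.4%. The HOX-PBX letters were in 1 of 41 distal member peaks, at DUSP6, 2.44% beside 5.53%, and in 0 of 19 promoter peaks, beside 1.27%. The ETS letters were in 5 of 19 promoter peaks, 26.3% beside 23.1%.

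The most accessible promoter peaks of 9 members had a mean log2 CPM, centred over the 4 libraries, of -0.15 and -0.10 in the sgFLT3-DE-1 libraries and 0.18 and 0.07 in the sgNT libraries. Of the other pathway genes, the 3 whose most accessible promoter peak lay nearest to this profile were FOSB, JUN and ATF3, all early response genes, with root mean square differences of 0.0489, 0.0495 and 0.0788 on the log2 scale. JUN had 53.4 and 51.3 CPM against 61.5 and 58.9.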
